A study of Mus musculus with 8 samples.

Results

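Foxo1, Foxo3, Foxo4, Txnip, Sesn1 and Sesn3 were examined in haematopoietic stem cells of mouse bone marrow. These 6 genes, of 53715 counted, were taken by name, with earlier results of these data known. No measured value enters the rule itself. All 6 had enough fragments to be tested. None was called between the genotypes. Foxo3 stood highest among them by its unadjusted p, at 1.43-fold more transcript under the heterozygote label, while the other 5 differed by less than their SD within groups.

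FoxO proteins are forkhead transcription factors that act downstream of insulin and growth factor signalling. Akt and related kinases phosphorylate them, after which adaptor proteins hold them in the cytoplasm. When the kinases are quiet, FoxO proteins enter the nucleus and switch on genes for cell cycle arrest, autophagy and the removal of reactive oxygen species. Mouse stem cells of the marrow are mostly resting, and loss of FoxO factors, of Foxo3 in particular, is known to bring them out of rest, to raise their oxidants and to shorten their capacity to repopulate. Txnip binds thioredoxin, limits glucose uptake and is known to keep mouse stem cells at rest. Sestrins restrain the growth kinase complex mTORC1 when amino acids are short, and Sesn1 and Sesn3 are among the genes that FoxO factors are known to induce.

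Mice labelled as heterozygotes of the Gata2; Mx1-Cre genotype (n = 4) were set against mice labelled Gata2 wild type (n = 4). Mx1-Cre places the recombinase under an interferon-induced promoter that is active in many blood and other cells, so it is not restricted to stem cells. All 8 mice received 6 doses of pIpC, a double-stranded RNA that induces interferon, and were 8 to 12 weeks old. Cells were sorted as LSK CD48- CD150+, which selects for surface markers of stem cells. The labels name Mx1-Cre for the heterozygotes alone and do not tell which mice shared a litter. Each library was made from 1 mouse and held 16750778 to 22861884 fragments assigned to genes.

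Gata2 itself, which encodes a zinc finger transcription factor of blood stem cells, was not lower under the heterozygote label. Its level was 35.5, 61.9, 36.7 and 45.1 counts per 1000000 (CPM) in heterozygote-labelled replicates 1 to 4, against 30.1, 45.3, 29.1 and 38.5 CPM in wild-type replicates 1 to 4. On the log2 scale the difference was 0.33 (SE 0.23), with an adjusted p of 0.858 (edgeR quasi-likelihood test, Benjamini-Hochberg). It was 0.13 without heterozygote-labelled replicate 2 and 0.53 once trends with GC content and length were taken out, where the edgeR p was 0.0421 unadjusted and 0.884 adjusted. Counts over the whole gene do not separate the deleted part from the rest, so "heterozygote-labelled" is used throughout. The sort markers Kit, Ly6a and Slamf1 were present in every library, at means of 148, 139 and 24.0 CPM under the heterozygote label and 164, 96.5 and 34.0 CPM in wild type. Ly6a alone of these 3 did not overlap between groups, at a log2 fold change of 0.53 (SE 0.15) and an edgeR adjusted p of 0.850, and its part in the results was not tested. Cd48, whose protein the sort selected against, averaged 24.4 CPM under the heterozygote label and 23.5 CPM in wild type. No gene of the 13992 tested passed an adjusted p of 0.05 in edgeR, where 792 (5.66%) had an unadjusted p under 0.05. The smallest adjusted p was 0.834. limma-voom with quality weights also called 0 genes, and DESeq2 called 79 of 15376 (0.514%), none of them a member. In bulk RNA, fewer cells of a type and less RNA per cell cannot be told apart.

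The 6 transcripts spanned a wide range of abundance. Per kilobase of exon, and as mean ± SD over the 8 libraries, Sesn1 stood highest with 65.0 ± 14.3 CPM per kb and Txnip next with 55.3 ± 15.5 CPM per kb. Foxo3 followed at 12.2 ± 3.29 CPM per kb. Sesn3 had 1.38 ± 0.599 CPM per kb, Foxo1 1.121 ± 0.756 CPM per kb and Foxo4 0.348 ± 0.228 CPM per kb. Sesn1 exceeded Txnip in 6 of 8 libraries and their ranges met, so that order lies within their spread. Txnip exceeded Foxo3, and Foxo3 exceeded Sesn3, in all 8 libraries with ranges that did not meet. Sesn3 exceeded Foxo1 in 5 of 8 libraries, and Foxo1 exceeded Foxo4 in 7 of 8. Among all genes tested, the per-kilobase level lay at percentile 91.6 for Sesn1, 90.4 for Txnip, 71.3 for Foxo3, 29.9 for Sesn3, 26.0 for Foxo1 and 7.86 for Foxo4.

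Foxo3 made up most of the FoxO transcript pool in every library. Its share of the summed per-kilobase level of the 3 detected FoxO genes was 89.2 ± 6.07% in heterozygote-labelled mice and 89.6 ± 5.21% in wild-type mice (SD, n = 4 each). Foxo1 held 8.01 ± 5.45% under the heterozygote label and 8.28 ± 5.19% in wild type, and Foxo4 held 2.76 ± 1.67% under the heterozygote label and 2.08 ± 0.289% in wild type. The FoxO sum itself was 16.0 ± 2.70 CPM per kb under the heterozygote label and 11.3 ± 2.78 CPM per kb in wild type. The ranges overlapped, at 13.3 to 19.0 CPM per kb under the heterozygote label and 8.63 to 14.8 CPM per kb in wild type. Foxo6, the other family member, had 0 counts in all 8 libraries, which allows up to 3 counts in each. Among the sestrins Sesn1 held 97.3 ± 0.811% of the summed per-kilobase level in heterozygote-labelled mice and 96.6 ± 0.725% in wild-type mice. Sesn3 held 1.74 ± 0.566% under the heterozygote label and 2.56 ± 1.34% in wild type, and Sesn2 0.920 ± 0.366% under the heterozygote label and 0.857 ± 0.654% in wild type.

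**Figure D1:**
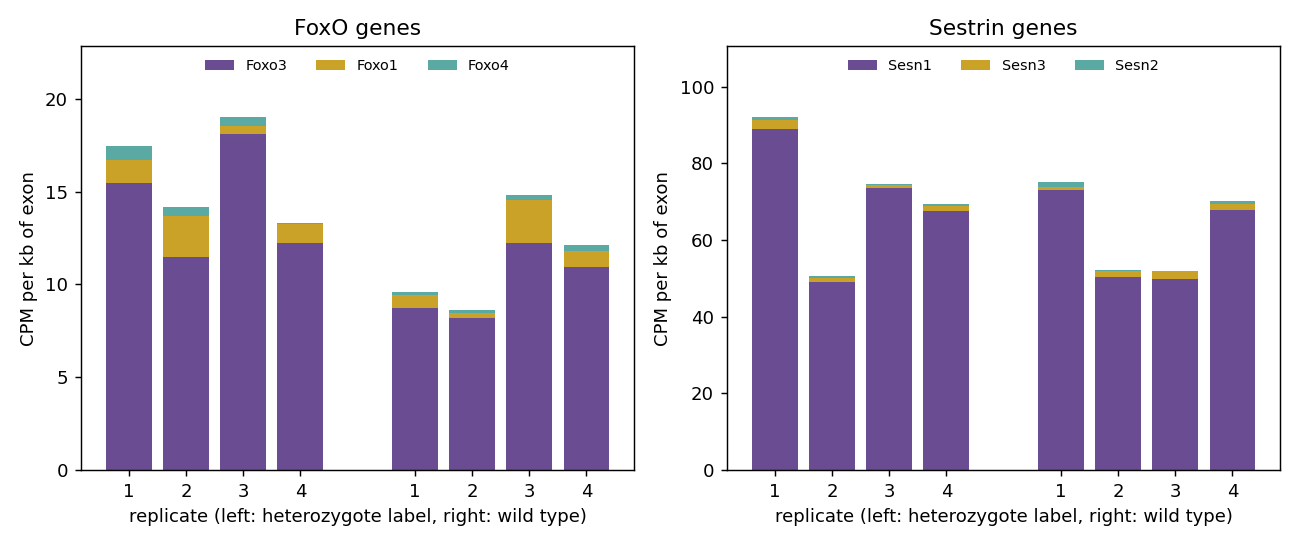
Per-kilobase level (CPM per kb of exon) of the FoxO genes and of the sestrins, stacked for each library, with heterozygote-labelled replicates 1 to 4 left of wild-type replicates 1 to 4. Over the 8 libraries Foxo3 holds 81.0% to 95.1% of the FoxO sum and Sesn1 holds 96.0% to 98.4% of the sestrin sum.

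Foxo3, on chromosome 10 (GRCm38 chr10:42181841-42276755, minus strand), encodes the FoxO factor most tied to stem cell maintenance in mice. Its level was 117, 87.1, 137 and 92.8 CPM in heterozygote-labelled replicates 1 to 4, against 66.1, 62.1, 92.6 and 82.8 CPM in wild-type replicates 1 to 4. Heterozygote-labelled replicates 1 and 3 lay above every wild-type library, while wild-type replicate 3 lay above heterozygote-labelled replicate 2 and just under replicate 4. The means were 108 ± 23.0 CPM under the heterozygote label and 75.9 ± 14.3 CPM in wild type (SD, n = 4 each), a 1.43-fold difference with a 95% interval of 1.07 to 1.92. On the log2 scale that is 0.52 (SE 0.19). The unadjusted p of 0.0217 ranked 351 of the 13992 genes tested by edgeR, and the adjusted p was 0.850. A two-sided exact permutation test over the 70 assignments of libraries gave p = 0.0571, where the smallest it can give is 0.0286. Exact tests of the other 5 members gave p between 0.514 and 0.971. For Foxo3 DESeq2 gave a log2 fold change of 0.52 with an adjusted p of 0.314, and limma-voom 0.55 with an adjusted p of 0.425.

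Foxo3 stayed higher under the heterozygote label in all 19 other settings tried, by 0.38 to 0.63 on the log2 scale. Its edgeR adjusted p lay between 0.234 without wild-type replicate 3 and 1.00 without wild-type replicate 2. The unadjusted p reached 0.05 or more when heterozygote-labelled replicate 1 or 3 or wild-type replicate 1 or 2 was left out. Foxo3 was the 1 member of 6 with an unadjusted p under 0.05 and a higher level, against 331 of 13992 genes (2.37%). In the lower direction 0 of 6 members had an unadjusted p under 0.05, against 461 genes (3.29%). No member separated the groups without overlap, against 485 of all genes tested (3.47%). Of the 6 members, 4 had a positive and 2 a negative fold change, and 6712 of all genes tested (48%) were positive. Since the members were chosen with earlier results of these data known, these counts carry no test.

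**Figure D2:**
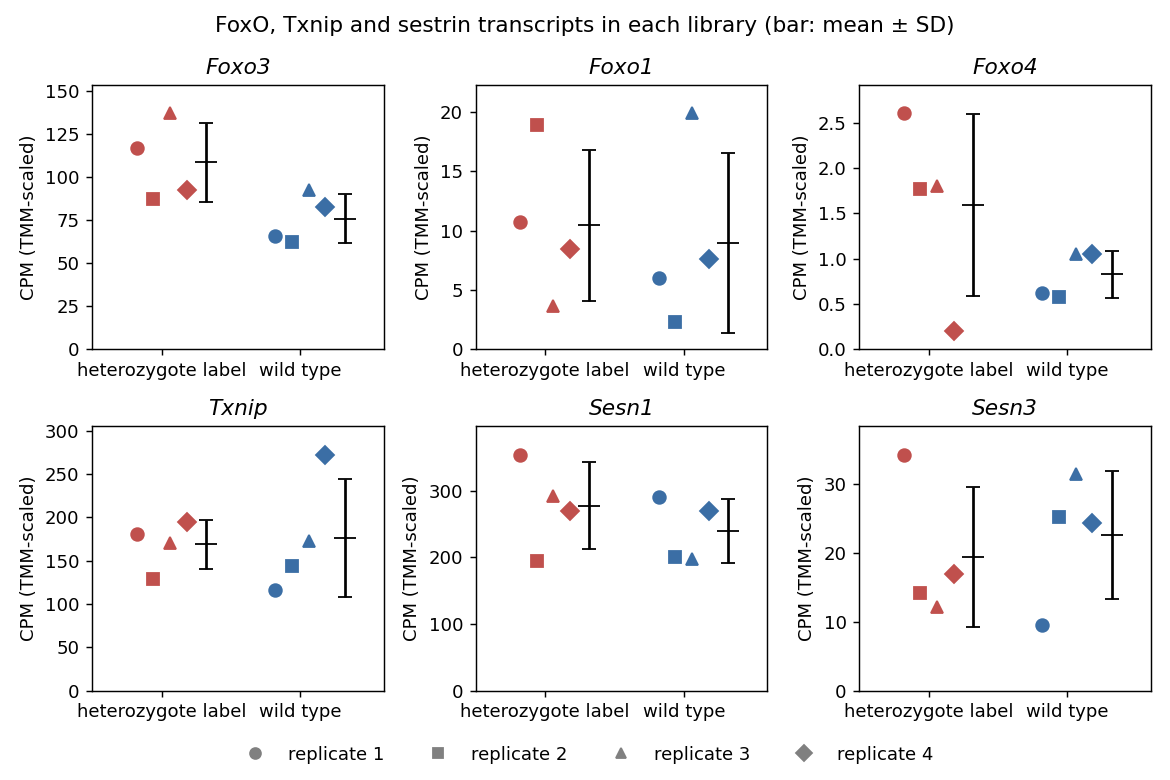
TMM-scaled CPM of each member on an axis that starts at 0, 1 point per library with its replicate shown by shape, heterozygote-labelled libraries left of wild-type ones, and black bars for the mean ± SD of each group. Foxo3 lies higher under the heterozygote label with overlapping ranges, and the ranges of the other 5 members overlap too. Each heterozygote-labelled point of Foxo4, though, lies either above or below all of its wild-type points.

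**Figure D3:**
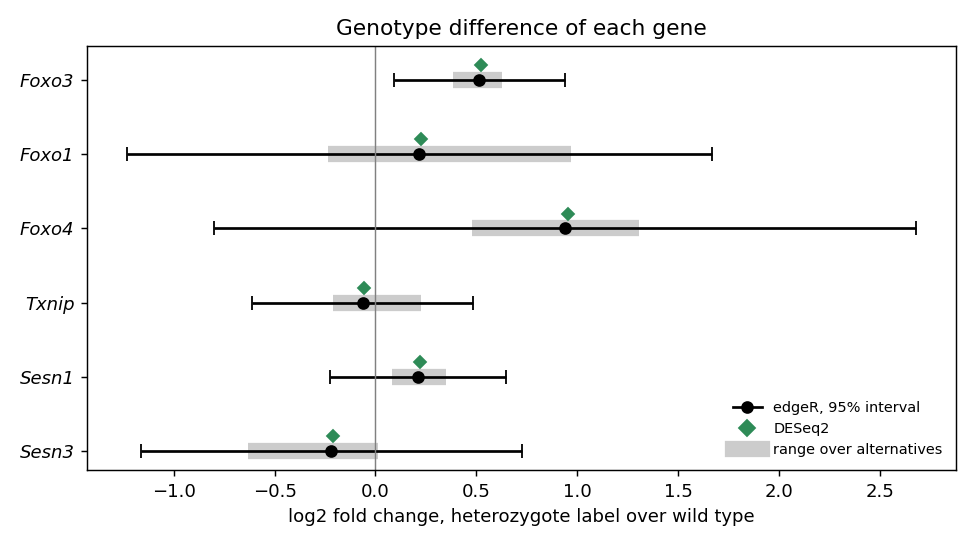
Log2 fold change, heterozygote label over wild type, of each member, with a black point and bar for the edgeR estimate and its 95% interval, a green diamond for DESeq2 and a grey band for the range over the other settings tried. The interval of Foxo3 lies above 0 at 0.52 before adjustment, and every other member's interval spans 0.

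Foxo1 (chr3:52268336-52353221, plus strand) encodes the FoxO factor best known from insulin signalling and lymphocyte development. It had 10.8, 18.9, 3.65 and 8.44 CPM in heterozygote-labelled replicates 1 to 4, against 6.00, 2.33, 19.9 and 7.66 CPM in wild-type replicates 1 to 4. The highest and the lowest library were both wild type, 8.54-fold apart, and the groups overlapped over nearly their whole range. The log2 fold change was 0.22 (SE 0.65), with an edgeR adjusted p of 0.965. Leaving out 1 library at a time moved it between -0.23 and 0.97, so no direction can be given. Its SD within groups on the log2 scale was larger than that of 90.9% of the 3352 genes whose mean level was within 2-fold of its own. That spread rested on 48 to 416 fragments per library.

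Foxo4, on the X chromosome (chrX:101254528-101260873, plus strand), encodes a smaller FoxO factor that is regulated by the same kinases. It was the scarcest member, with 4 to 52 fragments per library. Heterozygote-labelled replicates 1 to 4 had 2.61, 1.78, 1.80 and 0.205 CPM, against 0.621, 0.583, 1.05 and 1.06 CPM in wild-type replicates 1 to 4. Heterozygote-labelled replicates 1 to 3 lay above every wild-type library, and replicate 4 lay below them all. The fold change was 1.92 with a 95% interval of 0.575 to 6.41, and the edgeR adjusted p was 0.875. Without replicate 4 the log2 fold change was 1.31 and without any other library it was at least 0.61, against 0.94 (SE 0.78) with all 8 libraries. Its SD within groups, 1.05 on the log2 scale, exceeded that of 43.5% of 2694 genes of like level.

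Txnip, on chromosome 3 (chr3:96557957-96561883, plus strand), encodes the thioredoxin-interacting protein, an arrestin-domain protein whose transcript responds to glucose. Levels were 181, 129, 171 and 194 CPM in heterozygote-labelled replicates 1 to 4, against 117, 144, 173 and 273 CPM in wild-type replicates 1 to 4. Wild type held both the lowest and the highest library, and all heterozygote-labelled libraries fell between them. The log2 fold change was -0.06 (SE 0.25) with an edgeR adjusted p of 0.972, and the 95% interval of the fold ran from 0.654 to 1.40. Leaving out 1 library moved it between -0.21 and 0.22, and limma-voom gave 0.056, so the sign is not settled. With 2113 to 6188 fragments per library counting error is small, yet its SD within groups of 0.411 on the log2 scale was above that of 95.8% of the 1988 genes of like level.

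The Txnip promoter is shown because its regulatory elements are known from other cell types and could be located by their letters. The sequence is the RefSeq entry of GRCm38.p6 at chr3:96557707-96558006, plus strand, 250 bases before to 50 after the start site. Capitals mark a forkhead core (GTAAACA, or the same with A as the first letter), a CCAAT box (CCAAT) and the carbohydrate response element, a pair of CACNNG half-sites in the same direction, each searched on both strands, and none of the marked stretches overlap.
Txnip promoter: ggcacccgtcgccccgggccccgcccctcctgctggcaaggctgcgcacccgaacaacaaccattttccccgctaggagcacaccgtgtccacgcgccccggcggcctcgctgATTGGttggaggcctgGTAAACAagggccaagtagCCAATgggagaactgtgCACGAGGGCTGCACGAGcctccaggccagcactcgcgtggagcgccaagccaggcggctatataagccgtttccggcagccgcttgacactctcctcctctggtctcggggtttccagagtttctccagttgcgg
The forkhead core begins 121 bases before the start site and the paired half-sites 85 bases before it. CCAAT boxes begin 137 and 102 bases before it. Among 32851 promoters of the same length, 7.97% hold the forkhead core, 1.09% the paired half-sites and 37.4% a CCAAT box. Of the 6 windows found for 5 members, 2 hold the forkhead core, 1 the paired half-sites and 5 a CCAAT box. These are letter matches, and no binding was measured here.

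Sesn1 (chr10:41809935-41908424, plus strand) encodes the most abundant sestrin of these cells and is also a known target of p53. Its level was 355, 195, 292 and 269 CPM in heterozygote-labelled replicates 1 to 4, against 291, 200.1, 198 and 270.4 CPM in wild-type replicates 1 to 4. Heterozygote-labelled replicate 1 was the highest and replicate 2 the lowest of all 8 libraries. The means were 278 ± 65.7 CPM under the heterozygote label and 240.0 ± 47.9 CPM in wild type (SD, n = 4 each), a log2 fold change of 0.21 (SE 0.19) with an edgeR adjusted p of 0.893. The fold interval of 0.856 to 1.57 does not reach a 2-fold change in either direction. The fold change was positive in every setting tried, between 0.08 and 0.35. The SD of Sesn1 within groups was 0.325 on the log2 scale, above that of 90.2% of 1473 genes of like level.

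Sesn3, on chromosome 9 (chr9:14275067-14333101, plus strand), encodes a sestrin whose gene FoxO factors are known to induce. Its level was 34.3, 14.2, 12.2 and 16.99 CPM in heterozygote-labelled replicates 1 to 4, against 9.56, 25.2, 31.4 and 24.3 CPM in wild-type replicates 1 to 4. In each group replicate 1 stood apart, highest under the heterozygote label and lowest in wild type, and the other 3 heterozygote-labelled libraries lay below the other 3 wild-type ones. The log2 fold change was -0.22 (SE 0.42), with an edgeR adjusted p of 0.948. It was -0.63 without heterozygote-labelled replicate 1, -0.47 without wild-type replicate 1, -0.017 without wild-type replicate 3, and 0.012 by limma-voom. Sesn2, the stress-induced sestrin, had 2.96, 2.51, 1.47 and 1.84 CPM under the heterozygote label, against 4.30, 1.46, 0.0957 and 2.25 CPM in wild type. Its adjusted p was 0.989 (edgeR), and its 2 to 104 fragments per library leave its level poorly measured.

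Replicates 1 and 4 of each genotype were female and replicates 2 and 3 male, as read from Xist and Y-linked counts. Among males Sesn3 averaged 13.2 CPM in heterozygote-labelled mice and 28.3 CPM in wild-type mice without overlap, and among females 25.7 CPM in heterozygote-labelled mice and 16.9 CPM in wild-type mice with overlap (n = 2 in each group). Foxo4 averaged 1.79 CPM under the heterozygote label and 0.818 CPM in wild type among males without overlap. Among females Foxo4 had 2.61 and 0.205 CPM under the heterozygote label and 0.621 and 1.06 CPM in wild type, which overlapped, and the difference of mean log2 CPM was -0.0098. On average Foxo3 was higher under the heterozygote label in each sex. Male means were 112 CPM under that label and 77.4 CPM in wild type, with overlap. Female means were 105 CPM under that label and 74.4 CPM in wild type, without overlap. A difference between sexes was not tested with 2 mice in each cell. With sex as a term, the log2 fold change of Foxo3 was 0.52 with an edgeR adjusted p of 0.806.

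The Sesn1 and Sesn3 promoters are shown because both genes are described FoxO targets and of these windows only that of Sesn1 holds a forkhead core. Each is a RefSeq window of GRCm38.p6, plus strand, at chr10:41810324-41810623 for the upstream start of Sesn1 and at chr9:14276051-14276350 for Sesn3. Capitals mark the forkhead core and the CCAAT box as above, and GATA sites (AGATAA, or its variants with T as the first letter, G as the last or both), on both strands and without overlap.
Sesn1 upstream promoter: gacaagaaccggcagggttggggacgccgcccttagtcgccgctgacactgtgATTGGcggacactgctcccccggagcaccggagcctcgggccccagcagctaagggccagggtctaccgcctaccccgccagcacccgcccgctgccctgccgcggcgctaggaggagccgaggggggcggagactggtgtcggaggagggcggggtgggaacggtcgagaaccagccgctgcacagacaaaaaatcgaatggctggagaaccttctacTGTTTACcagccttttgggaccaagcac
Sesn3 promoter: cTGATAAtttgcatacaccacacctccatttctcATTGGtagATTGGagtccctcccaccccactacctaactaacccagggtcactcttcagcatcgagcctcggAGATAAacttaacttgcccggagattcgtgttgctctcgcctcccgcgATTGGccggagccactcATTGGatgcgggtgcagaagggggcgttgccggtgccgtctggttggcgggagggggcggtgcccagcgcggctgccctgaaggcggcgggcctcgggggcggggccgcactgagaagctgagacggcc
In the Sesn1 window the forkhead core, read on the opposite strand as TGTTTAC, begins 22 bases after the start site. A second window, at the downstream Sesn1 start, chr10:41887189-41887488, holds none. The Sesn3 window has no forkhead core, GATA sites that begin 249 and 144 bases before the start site, and 4 CCAAT boxes. GATA sites stand in 29.8% of all promoters and in 1 of the 6 windows of members. The Foxo1 and Foxo3 windows hold neither the forkhead core nor a GATA site.

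Sesn1 and Foxo3 are neighbours on chromosome 10 and are read towards each other, with 273416 bases between their ends. Armc2 and the predicted gene Gm9855 were the tested genes between them. Armc2 averaged 1.32 CPM under the heterozygote label and 1.94 CPM in wild type, and Gm9855 1.76 CPM under the heterozygote label and 1.31 CPM in wild type. Their log2 fold changes were -0.55 (SE 1.68) and 0.42 (SE 0.65). Across the 8 libraries, Foxo3 and Sesn1 had a Pearson r of 0.466 (permutation p = 0.257). The strongest of the 15 pairs of members was Foxo3 with Foxo4, at r = 0.549 (permutation p = 0.155) and Spearman's rho = 0.548 (permutation p = 0.171). After adjustment over the 15 pairs these p-values were 0.890 and 0.771, and r was 0.429 without the 2 libraries farthest from the median of Foxo3. No pair of members passed.

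Some genes followed a member closely over the 8 libraries. Likeness is the root mean square difference of log2 CPM after centring each gene, over the 8687 tested genes that averaged 5 CPM or more. Abhd2, a lipid hydrolase, was nearest to Foxo3 at 0.0806, against a median of 0.502 over those genes. Its level was 65.4, 48.6, 78.2 and 45.2 CPM in heterozygote-labelled replicates 1 to 4 and 38.4, 35.5, 47.8 and 44.7 CPM in wild-type replicates 1 to 4, with a log2 fold change of 0.51 (SE 0.21) and an edgeR adjusted p of 0.850. Klhl42 came next to Foxo3 at 0.0944. Lrrc8a, a subunit of volume-regulated anion channels, at 0.0818, and Tnfrsf10b, a death receptor, at 0.116 were nearest to Sesn1. Txnip was nearest to Ska3, a protein of the spindle attachment complex, at 0.144 and to Fgf2, a growth factor, at 0.149. Sesn3 was nearest to Atxn2, an RNA-binding protein, at 0.263 and to Apbb1ip at 0.304. Foxo1 was nearest to Clock, a circadian transcription factor, at 0.465 and to Cadps2 at 0.504.

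Klf4, a Krüppel-like transcription factor, was nearest to Foxo4, at 0.369, with Tmem65 at 0.391. Klf4 had 27.3, 43.6, 34.4 and 4.66 CPM in heterozygote-labelled replicates 1 to 4, against 12.4, 11.7, 14.4 and 24.9 CPM in wild-type replicates 1 to 4. Like Foxo4 it was higher than all wild-type libraries in heterozygote-labelled replicates 1 to 3 and lower than all of them in replicate 4. Its log2 fold change was 0.80 (SE 0.55) with an edgeR adjusted p of 0.855. Genes nearest to a member were picked on these libraries, so the distances describe them and carry no test.

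Around the members, 10 lists held 214 different genes, of which 201 were tested. None was called by edgeR or DESeq2. An unadjusted p under 0.05 was found for 4 with a higher and 6 with a lower level under the heterozygote label, shares of 1.99% and 2.99% that lie near those of all genes (2.37% and 3.29%). The median log2 fold change of the 201 was -0.08, against -0.018 over all genes tested.

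Kinases and phosphatases that act on FoxO proteins had 23 tested genes, 8 positive and 15 negative, with a median log2 fold change of -0.12. Pdpk1, the kinase that activates Akt, averaged 22.4 ± 5.03 CPM under the heterozygote label and 32.3 ± 6.86 CPM in wild type, without overlap and with a log2 fold change of -0.53 (SE 0.24). Akt1 and Akt2 had log2 fold changes of -0.15 and -0.16, and Sgk3, a kinase related to Akt, had 0.40. Without wild-type replicate 2 the median of these kinases and phosphatases was 0.018.

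Proteins that bind or modify FoxO factors had 20 tested genes, 12 positive and 8 negative, with a median of 0.08. Ywhaz, an adaptor that holds phosphorylated FoxO in the cytoplasm, averaged 1992 ± 113 CPM under the heterozygote label and 1716 ± 116 CPM in wild type, with a log2 fold change of 0.22 (SE 0.09). Its unadjusted p was 0.0333 and its adjusted p 0.850 (edgeR). Nlk, a kinase that inhibits FoxO factors, averaged 15.0 ± 2.48 CPM under the heterozygote label and 10.5 ± 1.39 CPM in wild type without overlap, at 0.51 (SE 0.24). Sirt1 and Sirt2, deacetylases of FoxO proteins, had log2 fold changes of 0.36 (SE 0.25) and -0.38 (SE 0.19).

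Described FoxO target genes had 33 tested members, of which 10 were positive and 23 negative, with a median of -0.09. Cdkn1b, the cell cycle inhibitor best known as a FoxO target, averaged 46.4 ± 11.96 CPM in heterozygote-labelled mice and 34.5 ± 8.87 CPM in wild-type mice, with a log2 fold change of 0.43 (SE 0.25) and an edgeR adjusted p of 0.850. Bcl6, a repressor, averaged 0.449 ± 0.253 CPM under the heterozygote label and 1.68 ± 0.915 CPM in wild type. Its groups did not overlap, and its log2 fold change was -1.90 (SE 0.75), with an unadjusted p of 0.0311 in edgeR. With 3 to 59 fragments per library, the level of Bcl6 is poorly measured. Gadd45a, a stress-response gene, averaged 4.43 ± 2.18 CPM under the heterozygote label and 8.23 ± 1.81 CPM in wild type, also without overlap. Sod2 and Cat, which remove superoxide and peroxide, had log2 fold changes of -0.025 (SE 0.11) and -0.13 (SE 0.17), and Ccng2 had 0.08 (SE 0.41). Fasl, Trim63 and Il7r had 0 counts in every library.

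Relatives and partners of Txnip had 14 tested genes, 1 positive and 13 negative, with a median of -0.21. Arrdc1, an arrestin-domain relative, averaged 19.2 ± 4.50 CPM under the heterozygote label and 35.8 ± 12.4 CPM in wild type, at a log2 fold change of -0.89 (SE 0.30). Its unadjusted p was 0.0150 and its adjusted p 0.850 (edgeR), the 1 gene of this list under 0.05 before adjustment. Slc2a3, a glucose transporter, averaged 68.2 ± 23.1 CPM under the heterozygote label and 103 ± 27.5 CPM in wild type, and Txnrd2, the mitochondrial thioredoxin reductase, 11.2 ± 1.78 CPM under the heterozygote label and 17.8 ± 6.55 CPM in wild type. Txn1, the thioredoxin that Txnip binds, was the 1 positive gene at 0.06 (SE 0.13). Arrdc4, which shares its glucose-responsive control with Txnip, had -0.52 (SE 0.30) and Arrdc3 had -0.022 (SE 0.29). The median of this list was negative in every setting tried, between -0.34 and -0.13. Its genes are not independent of each other across the libraries, and the count of signs carries no test.

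Sestrin partners and mTORC1 regulators had 29 tested genes, 9 positive and 20 negative, with a median of -0.14, which was 0.07 without wild-type replicate 2. Rheb, the small GTPase that activates mTORC1, had 525, 592, 611 and 529 CPM in heterozygote-labelled replicates 1 to 4, against 399.6, 376, 523 and 484 CPM in wild-type replicates 1 to 4. Every heterozygote-labelled library lay above every wild-type one, though wild-type replicate 3 came close. The log2 fold change of Rheb was 0.34 (SE 0.12), and its p in edgeR was 0.0210 unadjusted and 0.850 adjusted. Seh1l, a subunit of the GATOR2 complex that sestrins bind, averaged 328 ± 36.0 CPM under the heterozygote label and 387 ± 20.6 CPM in wild type, at -0.24 (SE 0.10). Antioxidant enzymes had 20 tested genes, 8 positive and 12 negative, with a median of -0.029. Gpx4, the peroxidase of lipid hydroperoxides, averaged 145 ± 19.3 CPM under the heterozygote label and 187 ± 15.8 CPM in wild type, with a log2 fold change of -0.37 (SE 0.12) and an unadjusted p of 0.0126 (adjusted p 0.850, edgeR).

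Genes tied to stem cell quiescence had 22 tested members, 12 positive and 10 negative, with a median of 0.07, which was -0.07 by limma-voom and -0.08 without heterozygote-labelled replicate 2. Rbl1, a pocket protein of the retinoblastoma family, had 117, 102, 109 and 101 CPM in heterozygote-labelled replicates 1 to 4, against 139, 146, 120 and 164 CPM in wild-type replicates 1 to 4. The groups did not overlap. The log2 fold change of Rbl1 was -0.41 (SE 0.12), and its p in edgeR was 0.00777 unadjusted and 0.850 adjusted. Cdkn2c, a cell cycle inhibitor, averaged 11.7 ± 1.84 CPM under the heterozygote label and 15.5 ± 0.944 CPM in wild type without overlap, and Meis1, a homeobox factor of stem cells, 562 ± 55.9 CPM under the heterozygote label and 654 ± 75.0 CPM in wild type. Proliferation markers had 21 tested genes, 7 positive and 14 negative, with a median of -0.07. Mcm5, a helicase subunit loaded before replication, averaged 96.6 ± 10.3 CPM under the heterozygote label and 129 ± 28.5 CPM in wild type, at -0.42 (SE 0.17) and an unadjusted p of 0.0311 (adjusted p 0.850, edgeR). The summed level of the proliferation list ran from 3475 to 3605 CPM in heterozygote-labelled libraries and from 3264 to 4084 CPM in wild-type libraries.

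**Figure D4:**
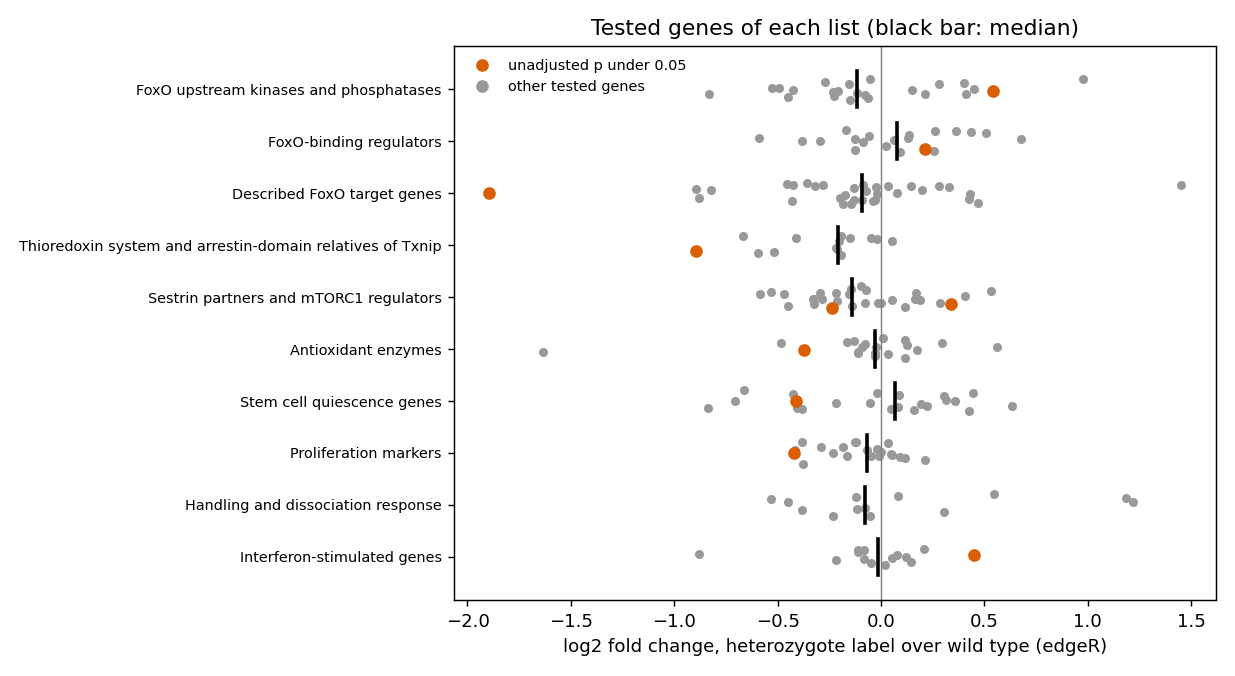
Log2 fold change, heterozygote label over wild type, of every tested gene in each of the 10 lists, with orange points for an unadjusted p under 0.05, grey points for the rest and a black bar at each list's median. Medians lie between -0.21 and 0.08. Every list has genes on either side of 0, though 13 of the 14 relatives and partners of Txnip are negative.

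Immediate-early and heat shock genes that respond to handling and dissociation differed widely between libraries of each group. Their summed level was 1126, 3308, 480.3 and 329 CPM in heterozygote-labelled replicates 1 to 4, against 1255, 3140, 367 and 745 CPM in wild-type replicates 1 to 4. Replicate 2 was highest in both genotypes. Foxo3 was low in those libraries for its group, and its correlation with the log2 sum was r = -0.513 (permutation p = 0.198) and rho = -0.571 (permutation p = 0.151), with r = -0.304 without the 2 libraries farthest from the median. Txnip had r = -0.549 (permutation p = 0.157) and rho = -0.667 (permutation p = 0.0831). After adjustment over the 12 relations of a member with the handling or the proliferation list, none passed. The part of handling in the level of either gene was not tested.

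**Figure D5:**
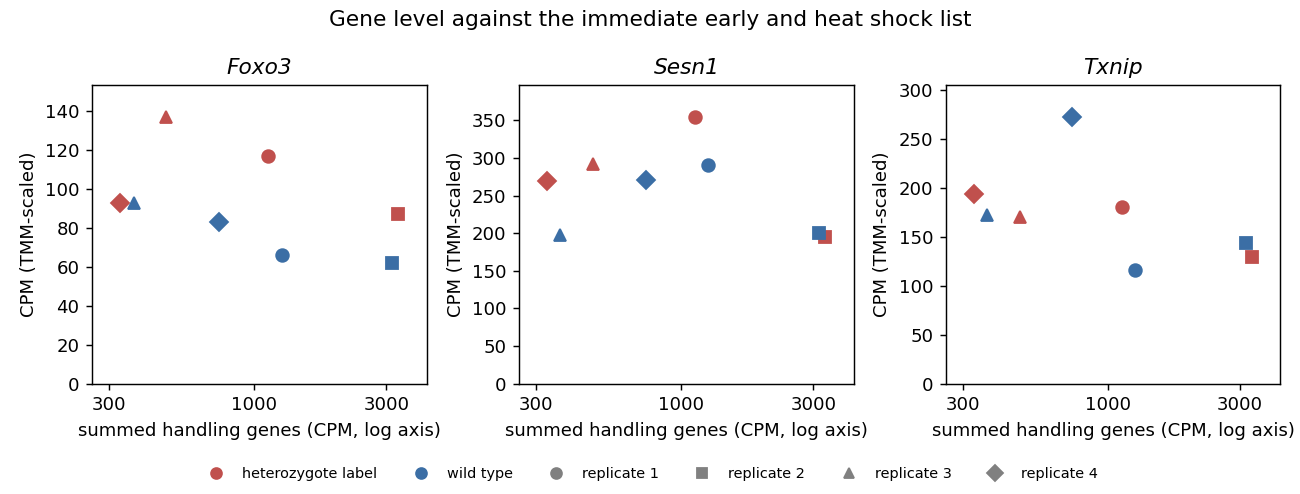
Level of Foxo3, Sesn1 and Txnip in each library (TMM-scaled CPM) against the summed level of the handling list (CPM, log axis), heterozygote-labelled and wild-type libraries marked apart. The replicate 2 libraries stand at the right with 3308 CPM under the heterozygote label and 3140 CPM in wild type.

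Txnip showed the largest correlation of the 12, with the proliferation list, at r = -0.817 (permutation p = 0.0214) and rho = -0.762 (permutation p = 0.0368). The adjusted p-values were 0.256 and 0.441, and r was -0.227 without the 2 libraries farthest from the median, so the relation rests on those libraries. Interferon-stimulated genes, of interest because pIpC was given to all mice, summed to 804 to 879 CPM in heterozygote-labelled libraries and 786 to 886 CPM in wild-type libraries. Of 14 tested, 7 were positive and 7 negative, and the median was -0.016, which was 0.12 without wild-type replicate 1 and -0.088 with library size alone as the scaling. Ifi44, an interferon-induced gene, averaged 128 ± 18.9 CPM under the heterozygote label and 93.6 ± 21.9 CPM in wild type, at a log2 fold change of 0.45 (SE 0.19), and its p in edgeR was 0.0407 unadjusted and 0.850 adjusted.

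No marker of another blood or marrow cell was called, and the summed levels of each list overlapped between groups. Megakaryocyte and platelet markers, of which 5 of 6 were lower under the heterozygote label, summed to 486 to 790.1 CPM there and 639 to 920.2 CPM in wild type. Among them Itga2b, an integrin subunit of platelets, averaged 31.96 ± 7.83 CPM under the heterozygote label and 51.7 ± 12.4 CPM in wild type, at a log2 fold change of -0.69 (SE 0.24) and an unadjusted p of 0.0169 (adjusted p 0.850, edgeR). Erythroid markers, 5 of 6 tested lower, summed to 21.8 to 49.4 CPM under the heterozygote label and 37.4 to 81.6 CPM in wild type. Markers of stroma and endothelium summed to 20.02 to 41.9 CPM under the heterozygote label and 33.4 to 75.5 CPM in wild type, and mast cell and basophil markers to 16.8 to 19.6 CPM under the heterozygote label and 14.2 to 40.9 CPM in wild type. All 3 tested stroma and endothelium markers were lower under the heterozygote label, and Col1a2, a collagen chain, averaged 0.997 ± 0.980 CPM there and 5.84 ± 5.41 CPM in wild type, at -2.54 (SE 0.99) and an unadjusted p of 0.0287 (adjusted p 0.850, edgeR). Cpa3, the 1 tested mast cell marker, averaged 17.3 ± 0.620 CPM under the heterozygote label and 28.5 ± 10.7 CPM in wild type, at -0.72 (SE 0.29) and an unadjusted p of 0.0352 (adjusted p 0.850, edgeR). Granulocyte and macrophage markers summed to 367 to 494 CPM in heterozygote-labelled libraries and 395 to 478 CPM in wild-type libraries. B and T cell markers summed to 118 to 145 CPM under the heterozygote label and 113 to 150 CPM in wild type, with Cd3e and Cd3g at 0 counts throughout. Granulocyte and macrophage markers had 3 positive and 3 negative genes of 6 tested, and B and T cell markers 1 and 1 of 2 tested. The part of these cells in the level of any member was not tested.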

How the data were processed

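RNA of sorted haematopoietic stem cells from 8 mice was depleted of ribosomal RNA and sequenced as strand-specific paired reads of 75 bases, per the labels' protocols. The submitters' processing notes name trimming and alignment by STAR 2.5.1b, with GRCm38 as the genome. The authors deposited raw fragment counts per gene of GENCODE M17, made by featureCounts in reverse-stranded mode, per the file headers. The headers give featureCounts 1.6.2 and the processing notes 1.5.1. Symbols came from a later GENCODE annotation of the same build, which named 53620 of 53715 identifiers. No 75-base stretch of a member's exons occurred in another gene on the same strand. On the opposite strand of other genes, 13.8% of those of Txnip, 6.13% of those of Foxo1 and 0.072% of those of Sesn3 occurred. Reads from there are kept apart only as far as the strand was kept, which was not measured.

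Replicate numbers came from the library descriptions, and p-values measure the spread between mice. In the check for pairing, mice of 1 number correlated at 0.0057 to 0.0961 after removal of the genotype means. These lay below the r of 0.1 set for pairing, so the numbers were not used to pair the mice. Mice of different numbers correlated at -0.084 to 0.0496, and a batch shared by number was not tested. Sex still followed the number in both genotypes, and a fit with the number as a block is given below. Counts were compared in edgeR 4.0.16 (R 4.3.3) by robust quasi-likelihood tests with genotype as the only term, TMM scaling (factors 0.946 to 1.08) and filterByExpr, which left 13992 genes. p-values were adjusted by the Benjamini-Hochberg method over these at a threshold of 0.05. CPM values include the TMM factors, log2 CPM carries a prior count of 2, and levels between genes are per kilobase of exon. Each fold change puts the heterozygote label over wild type. DESeq2 1.42.0 and limma 3.58.1 were alternatives. A count of 0 allows up to 3 counts, which covers counting error only. The procedure was tested on simulated counts whose changes were larger than that of Foxo3. It therefore does not tell whether a change of that size would be called.

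Named genes were Gata2, the members, Foxo6 and Sesn2, up to 3 genes of each of 10 pathway lists by unadjusted p, the sort markers, and the 2 genes most like each member. Some genes under this rule are not reported here. A few pathway and marker genes outside that rule were named for their known role or their unadjusted p, after their values were seen. The members and the lists were chosen with earlier results of these data known, so lists are described by counts and medians and carry no test.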

Additional observations from a re-analysis of the deposited data

Results flagged for a closer look

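Among 84 groups of 4 libraries, over 43 named genes, 5 held a library that stood apart by Dixon's test at the 95% level, where chance gives about 1 in 20. Of the members this held for Foxo4, whose heterozygote-labelled replicate 4 was lowest at -1.72 on the log2 CPM scale, or 0.205 CPM against 1.78 to 2.61 CPM in the other 3 libraries of its group. That library held 4 fragments of Foxo4. Among the pathway genes, Nlk was highest in heterozygote-labelled replicate 2, at 4.23 on the log2 CPM scale, or 18.7 CPM against 13.5 to 13.98 CPM. Pdpk1 was highest in wild-type replicate 1, at 5.42 on the log2 CPM scale, or 42.6 CPM against 28.2 to 29.8 CPM. Rrm2, a subunit of ribonucleotide reductase, was also highest in wild-type replicate 1, at 8.17, or 287 CPM against 176 to 188 CPM. Txnrd2 was lowest in wild-type replicate 2, at 3.06 on the log2 CPM scale, or 8.25 CPM against 19.4 to 23.0 CPM.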

How the results depend on the processing

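The call of 0 genes across all tested held under other scalings, other filters, limma-voom, an adjusted p of 0.10, the sex term and each of the 8 libraries left out in edgeR, while DESeq2 called 79 genes. Genes with an unadjusted p under 0.05 numbered 1812 without wild-type replicate 3 and 1461 by limma-voom, against 792. No member was called under any of these settings. The direction of Foxo3, Foxo4 and Sesn1 held under every setting tried. By limma-voom the log2 fold change turned to 0.056 for Txnip and 0.012 for Sesn3, and the cause was not tested. That of Cd48 turned to -0.0094 with library size alone and to -0.17 after removal of the trend on GC content and length, which took Foxo3 to 0.60. With 1 library left out at a time, log2 fold changes ran from -0.23 to 0.97 for Foxo1, from -0.21 to 0.22 for Txnip, from -0.28 to 0.79 for Sesn2, from -0.23 to 0.065 for Kit, from -0.13 to 0.17 for Cd48 and from -0.68 to 0.041 for Ier2. With the replicate number as a block, 0 genes were called, the log2 fold change of Foxo3 was 0.51 with an edgeR adjusted p of 0.723, and 4 of 8 libraries correlated best with the library of their own number. Depth limits Foxo4, with 4 to 52 fragments, Sesn2, with 2 to 104, and Bcl6, with 3 to 59.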
